A study of Homo sapiens with 12 samples.

Results

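HECT and UBR ubiquitin ligases were followed in RNA pulled down from cells given a biotinylated microRNA. The members were every array probe annotated to 31 listed symbols of the HERC, NEDD4, UBE3, HECTD and UBR families and their relatives. They came to 31 probes of 24 genes, out of 15025 probes and 9583 named genes in the deposited table. The genes HERC4, UBE3A, UBE3C, UBE3D, TRIP12 and UBR3 had several probes each, which are not replicates; by their accessions those of HERC4 and of TRIP12 belong to more than 1 transcript record. The table used here held no probe for 7 listed genes, AREL1, HACE1, HECW1, HECW2, SMURF1, SMURF2 and UBR7.

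The cells were HEK293T, derived from human embryonic kidney and expressing the large T antigen of SV40. They received 200 pmol of a synthetic duplex of miR-4307-3p or of miR-3118-3p with biotin attached, delivered with HiPerFect, and were harvested 24 hours later. Streptavidin beads, which bind biotin, gave the pull-down, and an input sample stands beside it. The 12 Illumina bead arrays fall into 4 groups of 3, namely the miR-4307-3p pull-down, the miR-4307-3p input, the miR-3118-3p pull-down and the miR-3118-3p input. All 4 groups thus share the cell line, the dose and the transfection with a biotinylated duplex, and no array of cells without a microRNA was analysed here. The microRNAs were added from outside, so the pull-downs show recovery at the supplied dose and not at the level of the cells' own microRNA.

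Ubiquitin is passed from an activating enzyme (E1) to a conjugating enzyme (E2) and then, through a ligase (E3), to the protein to be marked. HECT ligases take the ubiquitin onto a cysteine of their own before they hand it on, whereas RING ligases help the E2 to hand it over directly. UBR proteins share a zinc-binding UBR box, which in several of them recognises destabilising amino-terminal residues (N-degrons) of short-lived proteins. A microRNA guides Argonaute proteins to mRNAs that pair with its seed, so mRNAs that it holds can come down with it, and RNA that the beads hold by themselves can be higher in a pull-down as well.

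The mature microRNA sequences are shown because the seeds, in capitals (bases 2 to 8 from the 5′ end), set which mRNAs each microRNA can pair with. They are RefSeq sequences of build GRCh38.p14, where the names carry no arm.
miR-4307-3p: aAUGUUUUuuccuguuucc
miR-3118-3p: uGUGACUGcauuaugaaaauucu
The seeds are not shared. A or U stands at 6 seed bases of miR-4307-3p and at 3 of miR-3118-3p. The 19-base miR-4307-3p comes from 1 gene, MIR4307, at chr14:26908697-26908715 on the plus strand, bases 56 to 74 of an 84-base hairpin. The 23-base miR-3118-3p has 4 gene copies. MIR3118-2, MIR3118-3 and MIR3118-4 place it at chr15:20832838-20832860, chr15:21406428-21406450 and chr15:21843793-21843815 on the plus strand, bases 44 to 66 of a 75-base hairpin. MIR3118-1 places it at chr21:13644784-13644806 on the minus strand, bases 45 to 67 of a 76-base hairpin. Transcript sequences were not used here, so seed matches (AAAACAU for miR-4307-3p and CAGUCAC for miR-3118-3p) were not searched for in the ligase mRNAs.

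The values are normalized log2 signals, with array medians from 7.53 to 7.59, so a value counts as higher or lower only against the rest of the measured RNA. No input array held a value under 5.69, while pull-down arrays reached down to 5.53. In the pull-down of miR-3118-3p, replicate 1 differed from the rest. Across all probes it correlated at 0.963 and 0.968 with its group, where arrays of the other groups reached 0.988 or more. The median SD over all probes was 0.226 for pull-downs with miR-3118-3p and 0.129 to 0.137 for the other groups. Over the 31 ligase probes the median SD was 0.141 in the miR-4307-3p pull-down and 0.126 in its input, and it was 0.247 for pull-downs with miR-3118-3p and 0.0859 for their input. The line's markers were partly seen: 6 of 8 listed genes had a probe. Over the 12 arrays VIM averaged 11.84 and 11.11 on its probes, NEFM 8.28, INA 7.28, KRT8 6.58 and NEFL 6.55. KRT18 averaged 6.33 and 6.06 on its probes, near the lowest values on the arrays, and 6.69 and 6.35 in the input of either microRNA. Blood markers had 0 of 6 genes on the table, ALB was the 1 hepatocyte marker of 5 (6.48) and COL1A1 the 1 fibroblast marker of 5 (5.91). Streptavidin also binds the cells' own carboxylases that carry biotin, and of 6 probes of 5 such genes 4 were higher with miR-4307-3p and 3 with miR-3118-3p. ACACA was higher by 3.27 and 3.14 on its probes with miR-4307-3p and by 3.56 and 3.31 with miR-3118-3p, and ACACB by 0.95 and 0.98. MCCC1 stood at 0.65 (called) and -0.06, while PC (0.24 and 0.06) and PCCA (0.08 and -0.01) were called with neither. The part of bead binding in the ligase values was not tested. The labels do not say that replicates were separate cultures, so p-values cover only how these samples vary, possibly for technical reasons, and 3 arrays per group limit the precision.

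With miR-4307-3p, few of the ligase mRNAs were enriched, and 1 of them strongly: UBE3A stood nearly 2 log2 units above its input, followed by HERC2 and HERC5. With miR-3118-3p, the enriched ligases were more numerous and mostly less strongly enriched, and they included HERC1, HERC2, HERC4, NEDD4, NEDD4L, WWP1, UBE3A, UBE3D and UBR4. The greater number called depended on a spread estimated from all 12 arrays. With the spread from each microRNA's own 6 arrays, HERC1, NEDD4, WWP1, UBE3D and UBR4 were lost with miR-3118-3p, which left 5 probes. HERC1 and UBR4 were then called with miR-4307-3p, beside UBE3A, HERC2 and HERC5. Counts over the whole table moved between fits too. Over the 11 alternatives that kept every array, 863 to 2318 were higher with miR-3118-3p (1766 in the main fit). With miR-4307-3p 770 to 2293 were higher (1181 in the main fit). No member was depleted in either pull-down at the threshold, an adjusted p of 0.05 by limma. UBE3A and HERC5 were more enriched with miR-4307-3p than with miR-3118-3p.

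In counts, 4 of 31 probes (12.9%) of 3 genes were higher in the miR-4307-3p pull-down, set against its input, by limma, against 7.86% of all probes. None was lower (0 of 31, with 2 at an unadjusted p under 0.05), against 8.30% of all probes. With miR-3118-3p 10 of 31 probes (32.3%) of 9 genes were higher, against 11.8% of all probes, and 0 were lower (0 also at an unadjusted p under 0.05), against 12.8% of all probes. In both directions together, 10 of the 31 had an unadjusted p under 0.05 by limma with miR-4307-3p and 12 with miR-3118-3p. Of all 15025 probes, 4476 and 5624 did. The median log2 difference of the 31 probes was 0.06 with miR-4307-3p, where that of all probes was -0.04. With miR-3118-3p it was 0.26, where that of all probes was -0.03. These differences give recovery in a pull-down relative to its input, and not a change of level in the cells. For the signals themselves, which come from bulk RNA, more molecules per cell and more cells holding the molecule cannot be told apart.

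Groups that did not overlap were also counted, without a model. All 3 miR-4307-3p pull-down arrays lay above all 3 inputs for 8 of 31 probes (25.8%; 17.7% of all probes) and below them for 2, of WWP2 and HECTD2 (6.45%; 23.0% of all probes). All 3 miR-3118-3p pull-down arrays lay above all 3 inputs for 12 of 31 probes (38.7%; 15.7% of all probes) and below them for 0 (20.2% of all probes). The probe of HERC2 and both of UBE3A were higher in both pull-downs, which makes 3 of the 4 called with miR-4307-3p and 3 of the 10 called with miR-3118-3p. The share of all probes called higher in both was not counted, so this overlap has nothing to be read against. The differences were positive with both microRNAs for 17 probes (54.8%; 28.9% of all probes) and negative with both for 4 (12.9%; 38.2% of all probes). Across the 31 probes the log2 differences of the 2 microRNAs, which rest on separate arrays, correlated at 0.65 (Pearson) and 0.59 (Spearman), against 0.38 and 0.47 across all 15025 probes. Probes are not independent, and these correlations are descriptions.

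**Figure D1:**
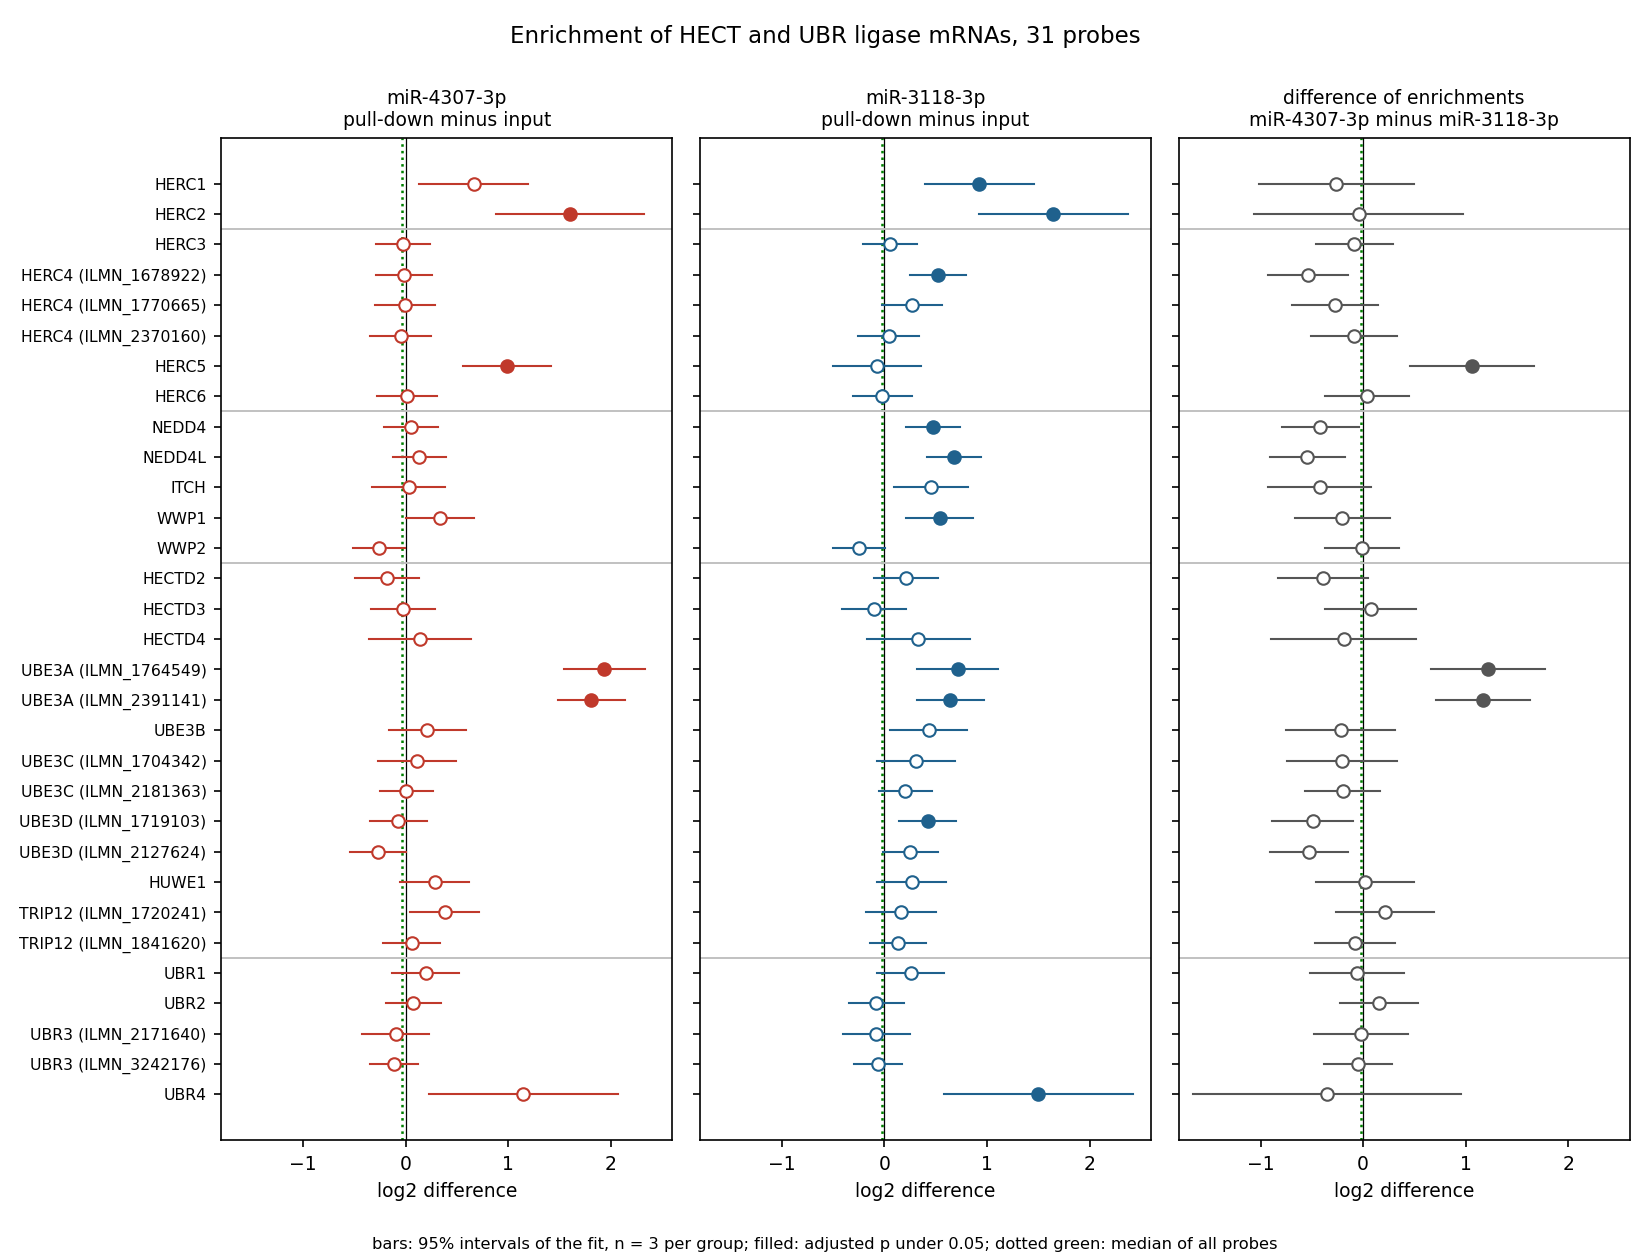
Log2 differences of the 31 probes of HECT and UBR ligases in 3 panels: miR-4307-3p pull-down minus input, miR-3118-3p pull-down minus input, and the first minus the second. Points are estimates of the fit, bars 95% intervals (n = 3 arrays per group), filled points an adjusted p under 0.05 and the dotted line the median of all probes; 4, 10 and 3 points are filled, all of them above 0, and grey lines separate large HERCs, small HERCs, the NEDD4 family, other HECT ligases and UBR proteins.

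UBE3A encodes E6AP, the founding HECT ligase, which papillomavirus E6 directs to p53 and whose loss in neurons causes Angelman syndrome. Probe ILMN_1764549 read 10.99, 11.34 and 11.66 on the miR-4307-3p pull-down arrays, against 9.21, 9.42 and 9.55 in its input. Every pull-down array lay more than a log2 unit above every input. The difference was 1.94 ± 0.18 (SE, n = 3 per group; limma adjusted p = 4.6e-06) and ranked 36 among the 15025 probes from the highest. Probe ILMN_2391141 read 11.24, 11.21 and 11.17 on the miR-4307-3p pull-down arrays, against 9.34, 9.22 and 9.64 in its input, a difference of 1.81 ± 0.15 (adjusted p = 1.73e-06; rank 56). The probes of UBE3A thus gave nearly the same enrichment.

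With miR-3118-3p the UBE3A probes also rose, by less. ILMN_1764549 read 9.66, 10.27 and 10.00 on the miR-3118-3p pull-down arrays, against 9.12, 9.48 and 9.20 in its input (0.71 ± 0.18; adjusted p = 0.0122). ILMN_2391141 read 9.59, 10.21 and 10.03 in the pull-down, against 9.32, 9.28 and 9.31 in the input (0.64 ± 0.15; adjusted p = 0.00788). Pull-down and input did not overlap on either probe, and replicate 1 was the lowest pull-down array on both. The call of ILMN_1764549 was lost when pull-down replicate 2 was left out (0.57, adjusted p = 0.0554) or when input replicate 1 was (0.64, adjusted p = 0.0514), whereas ILMN_2391141 stayed past the threshold whichever array was left out. The enrichment of UBE3A was greater with miR-4307-3p than with miR-3118-3p by 1.22 ± 0.26 on ILMN_1764549 (adjusted p = 0.00819) and by 1.17 ± 0.22 on ILMN_2391141 (adjusted p = 0.00305), tested as the difference of the pull-down against input differences. RefSeq lists the pseudogenes UBE3AP1 and UBE3AP2, 0 of them as transcribed, and probe sequences were not used here to tell them from UBE3A.

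Large HERC proteins are giant ligases with RCC1-like domains. HERC2 works in the response to DNA breaks with RNF8 and binds UBE3A, whose ligase activity it stimulates. HERC2 read 9.54, 8.98 and 9.16 on the miR-4307-3p pull-down arrays, against 7.97, 7.70 and 7.20 in its input (1.60 ± 0.34; adjusted p = 0.00487; rank 88). It read 10.22, 8.34 and 8.88 on the miR-3118-3p pull-down arrays, against 7.38, 7.55 and 7.55 in its input (1.65 ± 0.34; adjusted p = 0.00365; rank 15). Neither pair of groups overlapped. The enrichments differed by -0.05 between the microRNAs, with a 95% interval from -1.07 to 0.98, which leaves room for a difference of about a log2 unit either way. Without the miR-3118-3p pull-down replicate 1, the highest array, the value with miR-3118-3p was 1.11 (adjusted p = 0.00132). RefSeq lists 11 HERC2 pseudogenes, 7 of them transcribed, so the single HERC2 probe may also have read their RNA. Probe sequences were not used here to tell them from HERC2.

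HERC1, the other large HERC, read 7.94, 7.75 and 7.67 on the miR-4307-3p pull-down arrays, against 7.27, 7.05 and 7.05 in its input. The groups did not overlap, but the difference of 0.66 ± 0.25 missed the threshold (adjusted p = 0.0841). With the replicate number within each microRNA as a block, the adjusted p was 0.0346. That block pairs same-numbered arrays of both microRNAs, which share the spread, and for miR-3118-3p the pairing is not settled. HERC1 was also past the threshold with miR-4307-3p when the spread came from the 6 arrays of that microRNA alone (adjusted p = 0.000852) and without the miR-3118-3p pull-down replicate 1 (0.000702) or 2 (0.0404). In the miR-3118-3p pull-down HERC1 read 8.82, 7.45 and 7.65, against 7.05 ± 0.07 (SD, n = 3) in its input, whose values were 6.97, 7.08 and 7.09. That difference was 0.92 ± 0.25 (adjusted p = 0.0151). Leaving out pull-down replicate 1 gave 0.50 (adjusted p = 0.00918), and the call was lost without input replicate 1 (adjusted p = 0.0518) and with the spread taken from the 6 miR-3118-3p arrays (adjusted p = 0.0780). The enrichments of HERC1 differed by -0.26 between the microRNAs (95% interval -1.01 to 0.49).

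UBR4, a giant protein with a UBR box, binds N-degrons and is known from protein quality control. It read 9.84, 9.32 and 9.17 on the miR-4307-3p pull-down arrays, against 8.67, 8.18 and 8.03 in its input (1.15 ± 0.43; adjusted p = 0.0859; rank 257). As for HERC1, the groups did not overlap while the test missed the threshold. The block within each microRNA gave an adjusted p of 0.0163 for UBR4 with miR-4307-3p, the spread from that microRNA's 6 arrays 0.000230, and leaving out the miR-3118-3p pull-down replicate 1 or 2 gave 0.000309 or 0.0355. In the miR-3118-3p pull-down UBR4 read 11.23, 8.73 and 9.21, against 8.23, 8.20 and 8.22 in its input (1.50 ± 0.43; adjusted p = 0.0211; rank 23). Replicate 1 stood 2 log2 units or more above the other pull-down arrays, and without it the difference was 0.75 (adjusted p = 0.0121). The call was lost without input replicate 1, 2 or 3 (adjusted p = 0.0570, 0.0581 and 0.0562) and with the spread from the 6 miR-3118-3p arrays (0.0862). The difference between the microRNAs was -0.35, with a wide 95% interval from -1.66 to 0.95.

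Among the miR-3118-3p pull-downs, replicate 1 was the highest array for 11 of the 31 probes and the lowest for 13. It was the highest for HERC1, HERC2, HECTD4, HUWE1, UBE3B, UBR1 and UBR4, for both probes of UBE3D and for 1 probe each of UBE3C and UBR3. Replicate 1 was also the highest array for HERC1, HERC2, HECTD4, UBR1, UBR4 and that probe of UBR3 in the miR-4307-3p pull-down and in its input. HUWE1 and UBE3B were highest in replicate 3 of both. In the miR-3118-3p input, replicate 1 was the highest array for UBR4, both probes of UBE3D and those probes of UBE3C and UBR3. It was not the highest there for HERC1, HERC2, HECTD4, HUWE1, UBE3B or UBR1.

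**Figure D2:**
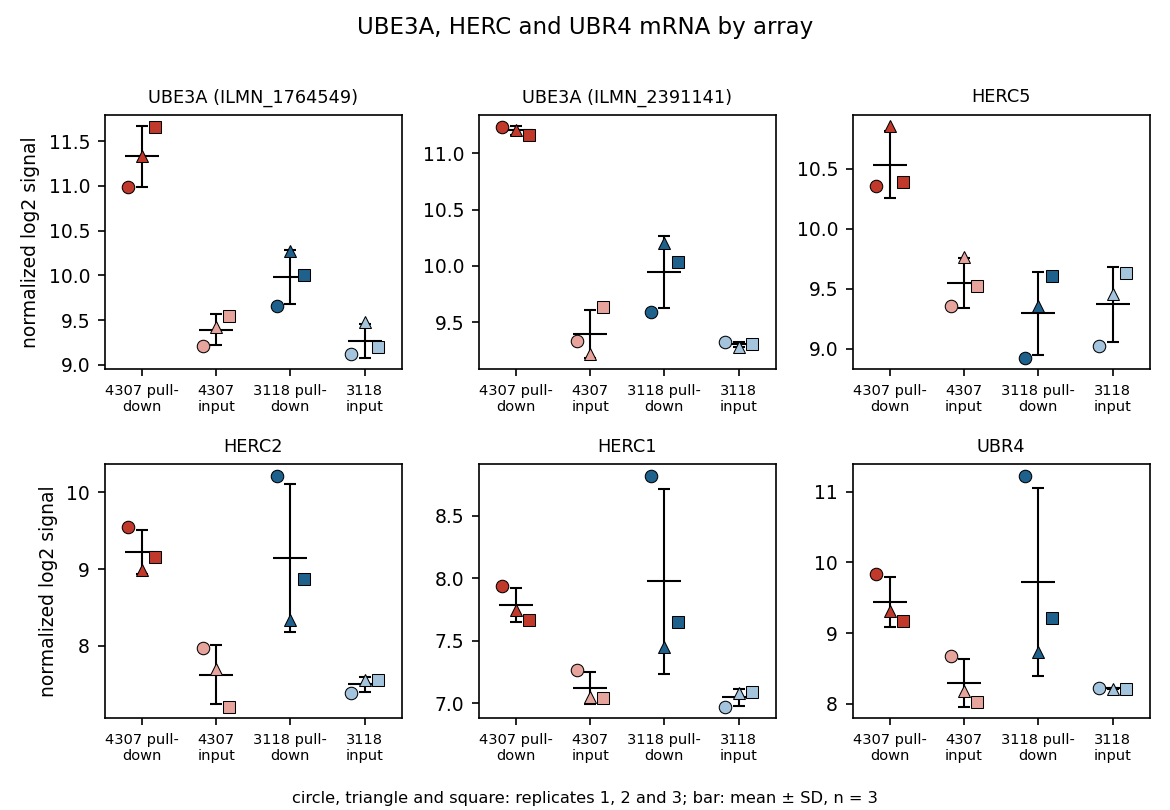
Normalized log2 signal (vertical axis, scaled to each panel) of UBE3A on each of its probes and of HERC5, HERC2, HERC1 and UBR4, with 3 arrays per group as symbols and the mean ± SD as bars. UBE3A and HERC5 are highest in the miR-4307-3p pull-down, at 10.99 to 11.66 and 10.36 to 10.85; replicate 1 (circle) is the highest miR-3118-3p pull-down array for HERC2, HERC1 and UBR4, at 10.22, 8.82 and 11.23.

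Small HERC proteins carry 1 RCC1-like domain and a HECT domain. HERC5, which interferon induces, is the main human ligase that attaches the ubiquitin-like protein ISG15. It read 10.36, 10.85 and 10.39 on the miR-4307-3p pull-down arrays, against 9.35, 9.76 and 9.53 in its input (0.99 ± 0.20; adjusted p = 0.00364). It read 8.92, 9.36 and 9.61 on the miR-3118-3p pull-down arrays, against 9.02, 9.46 and 9.63 in its input (-0.07 ± 0.20; adjusted p = 0.819). The miR-4307-3p groups were fully apart and the miR-3118-3p groups lay on top of each other. The enrichments differed by 1.06 ± 0.28 (adjusted p = 0.0314). That call was lost without the miR-4307-3p pull-down replicate 2 (0.90, adjusted p = 0.0898), the miR-4307-3p input replicate 1 (0.96, 0.0903) or 3 (1.05, 0.0722), or the miR-3118-3p input replicate 2 (1.02, 0.0826) or 3 (0.93, 0.0894). The HERC5 input levels of the microRNAs differed by 0.18 (95% interval -0.25 to 0.61).

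Among 6 measured interferon and ISG15 genes (8 probes), listed because HERC5 belongs to that response, the miR-4307-3p pull-down had 1 probe higher and 0 lower. It was IFIT1, an interferon-induced RNA-binding protein, at 1.09 ± 0.28 (adjusted p = 0.0142). With miR-3118-3p IFIT1 stood at 0.76 ± 0.28 (adjusted p = 0.0579), and its enrichments differed by 0.33 ± 0.39 (adjusted p = 0.734). The other 7 probes had negative values with miR-4307-3p. ISG15 itself, named after its value was seen, stood at -0.38 ± 0.14 (adjusted p = 0.0771). With miR-3118-3p 0 of the 8 were higher and 1 was lower, USP18, which removes ISG15, at -0.78 ± 0.17 (adjusted p = 0.00458). Of all probes, 7.86% were higher and 8.30% lower with miR-4307-3p, and 11.8% and 12.8% with miR-3118-3p.

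HERC4, which is needed for normal sperm in mice, had 3 probes that disagreed. ILMN_1678922 read 8.00, 8.09 and 8.18 on the miR-3118-3p pull-down arrays, against 7.73, 7.52 and 7.47 in its input (0.52 ± 0.13; adjusted p = 0.00946). With miR-4307-3p it read 7.35, 7.60 and 7.66 in the pull-down, against 7.69, 7.42 and 7.55 in the input, and the groups overlapped (-0.02 ± 0.13). The other probes, with values from 5.88 to 6.71, were near the lowest signals on the arrays. They gave 0.27 and 0.04 with miR-3118-3p, neither called, and the mean of the 3 probes gave 0.28 (adjusted p = 0.0789), so the HERC4 result rests on 1 probe. HERC3 stood at -0.03 with miR-4307-3p and at 0.05 with miR-3118-3p, and HERC6 at 0.01 and -0.02, with overlapping groups throughout. Mouse Herc6 is the main ISG15 ligase of that species.

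NEDD4-family ligases carry a lipid-binding C2 domain and WW domains that recognise proline-rich motifs, and they are known for marking membrane channels and receptors for uptake. Of the 5 with a probe, 0 were higher with miR-4307-3p (7.86% of all probes), and NEDD4, NEDD4L and WWP1 with miR-3118-3p (11.8% of all probes). NEDD4L, which controls the epithelial sodium channel, read 6.63, 6.83 and 6.97 on the miR-4307-3p pull-down arrays, against 6.60, 6.62 and 6.81 in its input (0.13 ± 0.12; adjusted p = 0.510). It read 7.16, 7.31 and 7.19 on the miR-3118-3p pull-down arrays, against 6.51, 6.50 and 6.63 in its input (0.68 ± 0.12; adjusted p = 0.00164). The miR-3118-3p arrays were cleanly separated, and the call held whichever array was left out.

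NEDD4, the family's namesake, read 6.03, 6.15 and 6.38 on the miR-4307-3p pull-down arrays, against 6.10, 6.08 and 6.21 in its input (0.05 ± 0.12; adjusted p = 0.823). It read 6.69, 6.74 and 6.50 on the miR-3118-3p pull-down arrays, against 6.18, 6.09 and 6.25 in its input (0.47 ± 0.12; adjusted p = 0.0133). The miR-3118-3p groups did not overlap. The call was lost without input replicate 2 (0.43, adjusted p = 0.0544) and with the spread from the 6 miR-3118-3p arrays (0.0547).

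WWP1, a ligase for several transcription factors of epithelial cells, read 9.30, 9.01 and 9.14 on the miR-4307-3p pull-down arrays, against 8.72, 8.70 and 9.01 in its input (0.34 ± 0.15; adjusted p = 0.160). It read 8.92, 9.54 and 9.07 on the miR-3118-3p pull-down arrays, against 8.64, 8.66 and 8.61 in its input (0.54 ± 0.15; adjusted p = 0.0208). Only the miR-3118-3p groups were apart, with pull-down replicate 2 the highest array. Without that array the value was 0.36 (adjusted p = 0.0928). The call was also lost without input replicate 1, 2 or 3 (adjusted p = 0.0545, 0.0524 and 0.0623) and with the spread from the 6 arrays (0.0737).

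ITCH, which restrains T cell activation, and WWP2 were not called in either pull-down. ITCH stood at 0.03 ± 0.17 with miR-4307-3p and at 0.45 ± 0.17 with miR-3118-3p (adjusted p = 0.0602), where pull-down replicate 1 (6.47) lay among the inputs (6.30 to 6.54) and the other pull-down arrays read 7.22 and 7.01. Without that replicate 1 the ITCH value was 0.67 (adjusted p = 0.00208). WWP2 was the 1 member of the family with negative values in both, at -0.26 ± 0.12 with miR-4307-3p (adjusted p = 0.159) and -0.25 ± 0.12 with miR-3118-3p (adjusted p = 0.147).

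The difference of enrichments, miR-4307-3p minus miR-3118-3p, was negative for all 5 NEDD4-family probes (53.1% of all probes). Of these, 0 passed the test of that difference, and WWP2 was close to no difference. The closest to the threshold was NEDD4L at -0.54 ± 0.17 (adjusted p = 0.0714), followed by NEDD4 at -0.42 ± 0.18 (adjusted p = 0.192) and ITCH at -0.42 ± 0.24 (adjusted p = 0.359). WWP1 stood at -0.20 ± 0.22 (adjusted p = 0.706) and WWP2 at -0.01 ± 0.17 (adjusted p = 0.982). Without the miR-3118-3p pull-down replicate 1, NEDD4L (-0.58, adjusted p = 0.0416), ITCH (-0.64, adjusted p = 0.0290) and the first HERC4 probe (-0.58, adjusted p = 0.0481) passed it. With all arrays and the replicate number within each microRNA as a block, NEDD4L passed it too (adjusted p = 0.0453). Whether those numbers pair the miR-3118-3p arrays is not settled.

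**Figure D3:**
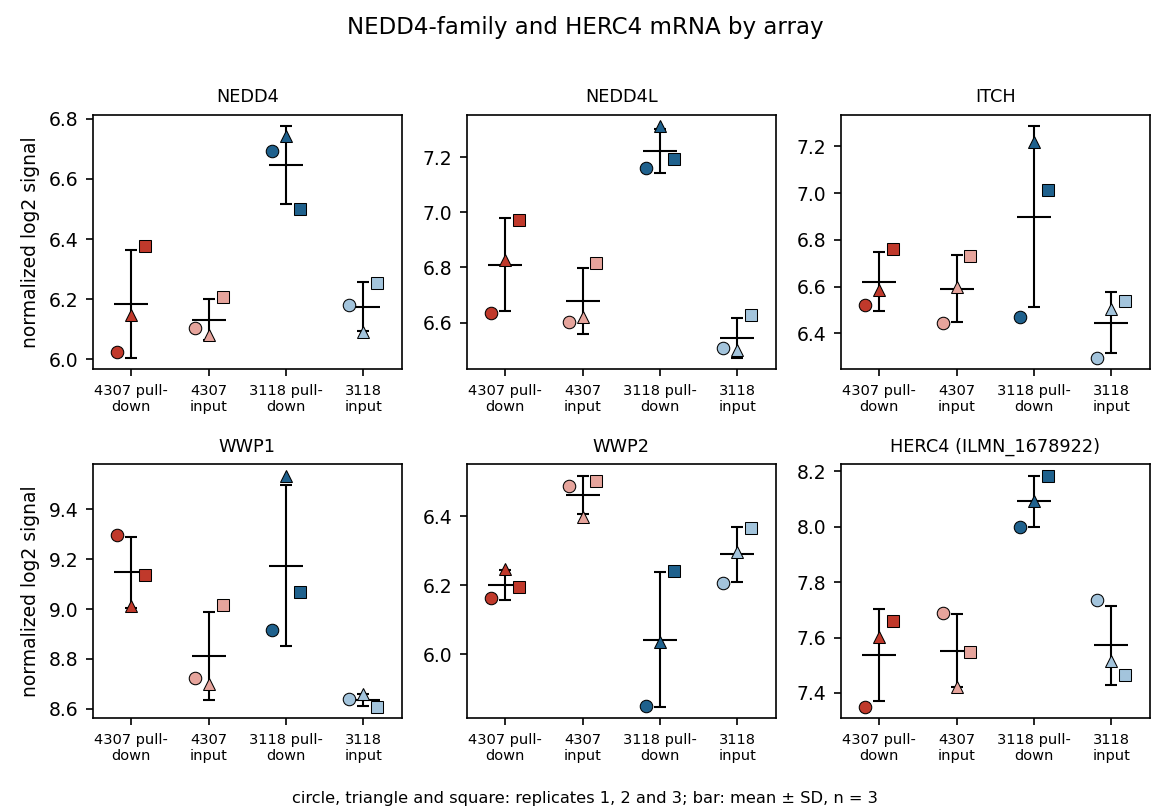
Normalized log2 signal (vertical axis, scaled to each panel) of NEDD4, NEDD4L, ITCH, WWP1, WWP2 and HERC4 (ILMN_1678922), with 3 arrays per group as symbols and the mean ± SD as bars. For NEDD4L the miR-3118-3p pull-down lies at 7.16 to 7.31, above its input at 6.50 to 6.63, while the miR-4307-3p pull-down and input overlap; for WWP2 the miR-4307-3p pull-down lies below its input.

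Among the other HECT ligases, UBE3D, which is known to bind an E2 of the cell cycle, was called on 1 of its probes with miR-3118-3p. ILMN_1719103 read 6.95, 6.46 and 6.67 on the miR-3118-3p pull-down arrays, against 6.30, 6.22 and 6.30 in its input (0.42 ± 0.13; adjusted p = 0.0296), and with miR-4307-3p it stood at -0.07 ± 0.13, with overlapping groups. ILMN_2127624 gave 0.25 ± 0.13 with miR-3118-3p (adjusted p = 0.158) and -0.27 ± 0.13 with miR-4307-3p (adjusted p = 0.164). The UBE3D call was the least stable of the set. It was lost without the miR-3118-3p pull-down replicate 1 (0.29, adjusted p = 0.0799), without input replicate 1, 2 or 3 (0.0631, 0.0901 and 0.0676), with the spread from the 6 arrays (0.106) and for the mean of its probes (0.34, adjusted p = 0.0505).

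UBE3B, UBE3C, HUWE1, TRIP12, HECTD2, HECTD3 and HECTD4 were not called in either pull-down. UBE3B, which mitochondria carry, stood at 0.21 ± 0.18 with miR-4307-3p and 0.43 ± 0.18 with miR-3118-3p (adjusted p = 0.0879). With miR-3118-3p it read 7.74, 7.20 and 7.12 in the pull-down, against 6.86, 7.16 and 6.76 in the input; the groups overlapped, and without pull-down replicate 3 the value was 0.55 (adjusted p = 0.0468). UBE3C, which works at the proteasome, had values of 0.11 and 0.01 on its probes with miR-4307-3p and 0.31 and 0.20 with miR-3118-3p. HUWE1, a giant ligase for MCL1 and p53, lay above its input on all miR-4307-3p arrays (0.28 ± 0.16; adjusted p = 0.252) and stood at 0.26 ± 0.16 with miR-3118-3p. TRIP12, a nuclear ligase, gave 0.38 ± 0.16 with miR-4307-3p on ILMN_1720241 (adjusted p = 0.123), with groups apart, and 0.06 on ILMN_1841620; with miR-3118-3p these probes gave 0.16 and 0.13. The HECTD proteins ranged from -0.18 for HECTD2 to 0.14 for HECTD4 with miR-4307-3p and from -0.10 for HECTD3 to 0.33 for HECTD4 with miR-3118-3p.

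Apart from UBR4, the UBR proteins differed little from their inputs. UBR1 and UBR2, the classical readers of N-degrons, stood at 0.20 ± 0.15 and 0.07 ± 0.13 with miR-4307-3p and at 0.25 ± 0.15 and -0.08 ± 0.13 with miR-3118-3p. UBR3 stood at -0.10 and -0.11 on its probes with miR-4307-3p and at -0.08 and -0.06 with miR-3118-3p. None of these 4 probes was called, and their groups overlapped in each comparison. Over all 27 probes not called with miR-4307-3p the 95% intervals reached from -0.54 to 2.07, the upper end being that of UBR4. Over the 21 not called with miR-3118-3p they reached from -0.50 to 0.83.

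The difference between the microRNAs was past the threshold for 3 of 31 probes (9.68%), both of UBE3A and that of HERC5, all more enriched with miR-4307-3p; 4.82% of all probes were called in that direction. None (0 of 31) was called in the other direction by limma, against 2.77% of all probes, while 5 were below an unadjusted p of 0.05. In both directions together 8 of the 31 were below it, against 2932 of all 15025 probes. The sign was positive for 8 probes (25.8%; 46.9% of all probes) and negative for 23 (74.2%; 53.1% of all probes), and the median was -0.09 where that of all probes was -0.02. By family, the sign was negative for 5 of 5 NEDD4-family probes, 2 of 2 large HERC, 4 of 6 small HERC, 8 of 13 other HECT and 4 of 5 UBR probes.

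The inputs of the microRNAs were compared to see whether the ligase mRNAs differed before the pull-down. None of the 31 probes differed between the miR-4307-3p input and the miR-3118-3p input by limma (0 called, 0 at an unadjusted p under 0.05), as for all 15025 probes (0% called, 252 at an unadjusted p under 0.05). The log2 differences ranged from -0.18 to 0.21, with 95% intervals from -0.85 to 1.00. The miR-4307-3p inputs lay above all miR-3118-3p inputs for 3 probes, of WWP1, WWP2 and HECTD2 (9.68%; 5.06% of all probes), and below them for 0 (3.94% of all probes).

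Other genes of the ubiquitin system were counted beside the HECT and UBR ligases. RING and U-box ligases, the larger class of E3, had 2 of 61 probes higher and 4 lower with miR-4307-3p, and 13 higher and 3 lower with miR-3118-3p. RNF8, which starts the ubiquitin signal at DNA breaks, rose by 1.57 ± 0.16 with miR-4307-3p (adjusted p = 7e-06), more than with miR-3118-3p by 1.30 ± 0.22 (adjusted p = 0.00161). MARCHF6, a ligase of the endoplasmic reticulum, rose with miR-3118-3p by 2.00 ± 0.24 and 0.91 ± 0.21 on its probes (adjusted p = 0.000166 and 0.00661). RBR ligases, which combine RING and HECT mechanisms, had 0 of 16 probes higher and 1 lower with miR-4307-3p, and 4 higher and 2 lower with miR-3118-3p. FBXO11, with a UBR box, and G2E3, with a HECT domain, together had 0 of 3 probes higher with miR-4307-3p and 2 with miR-3118-3p, where G2E3 stood at 0.68 ± 0.15 (adjusted p = 0.00619).

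Upstream of the ligases, E1 enzymes had 0 of 8 probes higher and 1 lower with miR-4307-3p, and 1 higher and 0 lower with miR-3118-3p. The last was UBA6, an E1 for ubiquitin, at 0.82 ± 0.24 (adjusted p = 0.0231). E2 enzymes had 3 of 36 probes higher and 3 lower with miR-4307-3p, and 5 higher and 3 lower with miR-3118-3p, where UBE2Z, the E2 that works with UBA6, rose by 1.05 ± 0.15 and 1.02 ± 0.16 on its probes (adjusted p = 0.000479 and 0.000654). Deubiquitinases, which remove ubiquitin, had 13 of 59 probes higher and 2 lower with miR-4307-3p, and 7 higher and 3 lower with miR-3118-3p. STAMBP, a deubiquitinase of endosomes, led the rises with miR-4307-3p at 1.87 ± 0.16 and 1.62 ± 0.13 on its probes (adjusted p = 2.32e-06 and 8.72e-07).

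Genes that work with the members moved in part. Of 12 probes of HERC2 and UBE3A partners, 4 were higher and 0 lower with miR-4307-3p, led by RNF8 (above) and by USP33, a deubiquitinase that HERC2 targets, at 1.23 ± 0.15 (adjusted p = 4.58e-05). With miR-3118-3p 2 were higher and 0 lower, both of PSMD4, a ubiquitin receptor of the proteasome, at 0.62 ± 0.15 and 0.40 ± 0.13 (adjusted p = 0.00842 and 0.0326). NEDD4-family adaptors and partners had 0 of 11 probes higher and 1 lower with miR-4307-3p, namely LITAF, a PY-motif protein of endosomes, at -0.43 ± 0.13 (adjusted p = 0.0284). With miR-3118-3p 1 was higher and 1 lower. The adaptor NDFIP2, which recruits and activates NEDD4-family ligases, rose by 0.78 ± 0.18 (adjusted p = 0.00731), and its enrichment was lower with miR-4307-3p, with a difference of -1.12 ± 0.26 (adjusted p = 0.0144). N-degron enzymes, which expose or make the residues that UBR proteins read, had 1 of 10 probes higher and 1 lower with miR-4307-3p. These were METAP2, which removes the first methionine, at 0.76 ± 0.13 (adjusted p = 0.00110), and NTAQ1, which deamidates amino-terminal glutamine, at -0.43 ± 0.14 (adjusted p = 0.0477). With miR-3118-3p METAP1 alone was called, at 0.53 ± 0.12 (adjusted p = 0.00686). Some genes, RNF8 among them, stand in more than 1 list, and the counts are read against 7.86% higher and 8.30% lower of all probes with miR-4307-3p and 11.8% and 12.8% with miR-3118-3p.

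**Figure D4:**
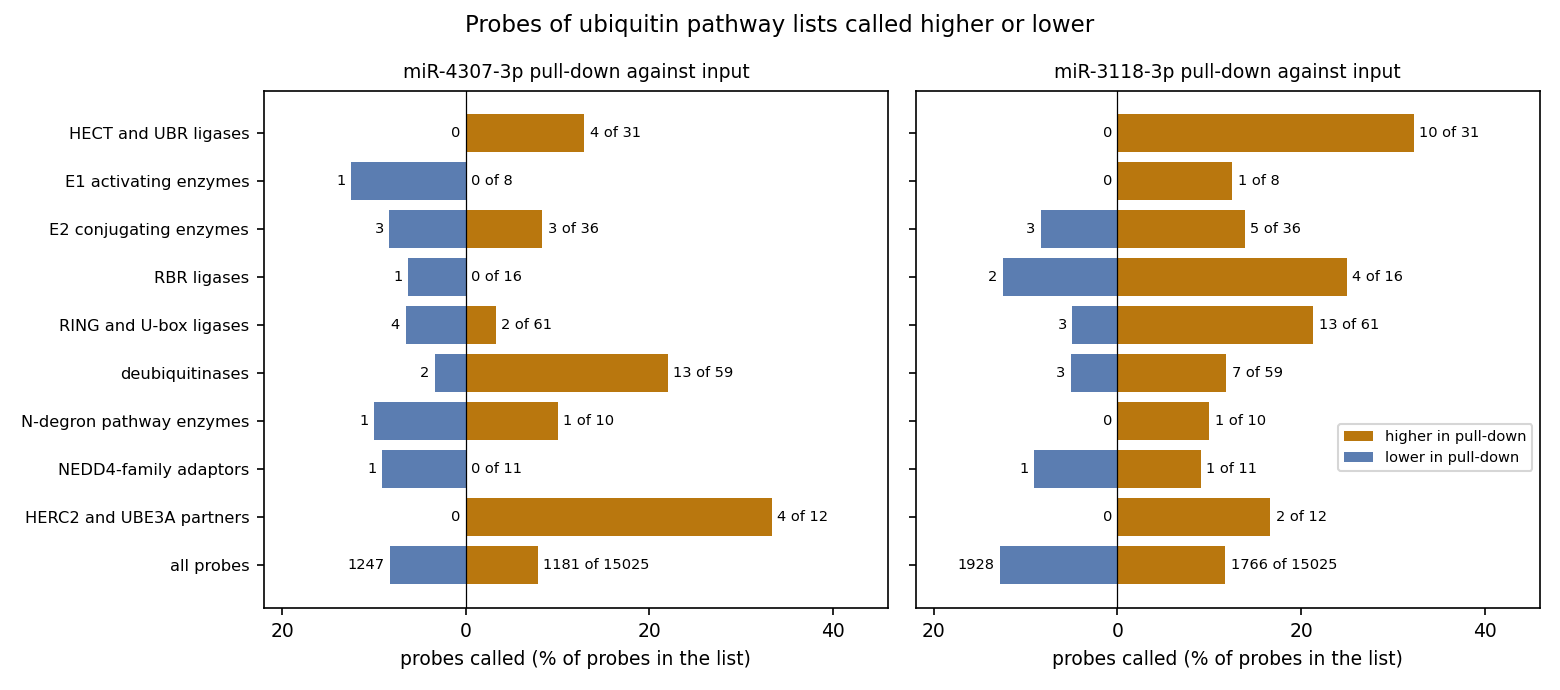
Share of the probes of each list called higher (right of 0) or lower (left of 0) in the miR-4307-3p pull-down and the miR-3118-3p pull-down against input, in percent of the list's probes, with the numbers of probes beside the bars. HECT and UBR ligases had 4 and 10 of 31 probes higher and 0 lower, deubiquitinases 13 and 7 of 59 higher, and all probes 1181 and 1766 of 15025 higher.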

How the data were processed

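Illumina bead array values of 12 samples were read from the deposited series matrix. The authors' values lie on a log2 scale, and the submitters' processing notes name lumi 2.2.1. Not given in the sources used here are the normalization, whether the log2 is plain or variance-stabilised (which compresses dim probes) and the filter that left 15025 probes. Another deposited table, of signals not yet normalized, was left aside because its 12 value columns cannot be tied to samples by name, so signal over background is unknown. Groups and replicate numbers came from the sample titles and characteristics; no 2 arrays were identical.

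Of 15025 probes, 12354 had 1 symbol in the platform annotation, 2 had several and 2669 were not listed there. Gene identifiers matched to RefSeq changed 0 symbols. limma 3.58.1 in R 4.3.3 (lmFit and eBayes, 4 group means, 12 arrays, 8 residual degrees of freedom) was fitted to all probes. Two-sided p-values were adjusted (Benjamini-Hochberg) over all 15025 probes in each of 4 comparisons, with a threshold of 0.05, and intervals are 95%. The fit was tested on simulated data. Python 3.11.15 and matplotlib 3.10.9 drew the figures. MicroRNA sequences and pseudogene names are from RefSeq (GRCh38.p14).

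Every measured member is named, with values per array for those called in a pull-down or in the difference, and also for UBE3B and, in the miR-3118-3p pull-down, ITCH, which passed the threshold without 1 array; of each other list up to 2 rises and 2 falls were eligible, the largest called. The members and lists were chosen with earlier results of these data known. To check the pairing, each array was set against its group mean. Across all probes, pull-down and input of the same number deviated together at r = 0.204, 0.342 and 0.286 with miR-4307-3p. All were over 0.1, so those numbers were taken to pair the arrays. With miR-3118-3p the values were 0.344, 0.0736 and 0.476. Each exceeded the values of differently numbered arrays (-0.375 to 0.0411), but that of replicate 2 was under 0.1. Pairing by number is therefore not settled for miR-3118-3p. The fit has no block; blocked fits are alternatives, with 23 alternatives in all, 12 of which leave out 1 array.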

Additional observations from a re-analysis of the deposited data

Results flagged for a closer look

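The difference between the microRNAs in pull-down minus input passed the test of that difference itself for 3 of the 31 probes. It was 1.22 on the log2 scale for UBE3A (ILMN_1764549), 1.17 for UBE3A (ILMN_2391141) and 1.06 for HERC5, each with the greater enrichment with miR-4307-3p. For both UBE3A probes it remained past the threshold whichever array was left out. For HERC5 it was lost in 5 of 12 such fits, with adjusted p-values up to 0.0903.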

How the results depend on the processing

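Over 17 called member results and 382 refits, 355 refits kept the call, 27 lost it and 0 turned its direction; 9 results were called in every refit that gave them a value, among them every call of UBE3A on ILMN_2391141, HERC2, NEDD4L and, with miR-4307-3p, HERC5. The number of member probes higher with miR-3118-3p (10) was 5 with the spread from 6 arrays, and ran from 5 to 11 over fits that left out 1 array, with 5 without miR-3118-3p input replicate 1 and 6 without input replicate 2. With array weights, 9 member probes were higher with miR-4307-3p and 1, of UBE3D, was lower. Counts over all probes moved between fits as well and are given below. The members with a lower enrichment with miR-4307-3p than with miR-3118-3p (0) ran from 0 to 3 over fits without 1 array and numbered 1 with a replicate block within each microRNA, which was NEDD4L (adjusted p = 0.0453). With that block ITCH (0.0142) and UBE3B (0.0475) were also called with miR-3118-3p, where pairing by number is not settled. The plain replicate block called ITCH (0.0248) and, with miR-4307-3p, UBR4 (0.0288). Beside these and the values of HERC1 and UBR4 with miR-4307-3p in the results (0.0346 and 0.0163), the blocks changed no call.

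Over all probes, counts with miR-4307-3p ran from 770 to 2293 higher and 553 to 2949 lower, with miR-3118-3p from 863 to 2377 higher and 892 to 2582 lower, and for the difference from 453 to 980 higher and 242 to 1036 lower. The causes were not tested. Background correction of the signals before normalization and the slide as a block were planned and not run, since those columns match no sample. Signals near the lowest values, as for HERC3, HERC6, NEDD4 and WWP2, limit how small a change can be seen.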
